A study of Mus musculus with 39 samples.

Results

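Embryos that had been exposed to T247 as zygotes were measured 24 h after insemination, at the 2-cell stage (3 arrays), and 48 h after insemination, at the 4-cell stage (3 arrays), and the comparison of these 2 groups is described here across all genes. The members are the 6 arrays whose titles give T247 and one of the 2 stages, of 39 arrays in the series. T247, an inhibitor described as selective for the histone deacetylase HDAC3, was given to zygotes at 10 µM for 6 h, starting 4 h after insemination. The exposure had therefore ended before both collections. The untreated transition, used for comparison, was measured on 3 control arrays at each of the same 2 stages. All embryos came from in vitro fertilization of B6D2F1 oocytes with ICR spermatozoa, and each array held RNA pooled from 100 embryos, so an array gives the average of its pool. The study describes the 3 arrays of a condition as independent samples.

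The mouse zygote starts with RNA made in the oocyte. Most of that maternal RNA is degraded around the first divisions, while the embryonic genome is switched on in a minor wave in the zygote and a major wave in the 2-cell embryo. Histone deacetylases remove acetyl groups from histones and other proteins, and for histones the loss of acetyl groups is associated with lower transcription. Between the 2-cell and 4-cell stages the embryo is known for shutting down a short-lived set of genes, including the Zscan4 cluster, and for building up ribosomes, mitochondria and the proteins of cell division.

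Values are log2 intensities after smooth quantile normalization, 1 probe (the brightest) for each of 15990 genes, and a gene was called where its log2 change was at least 1 in size with an adjusted p below 0.05 (limma). The detection filter, normalization and fit used 24 arrays of 8 conditions, among them embryos given MGCD0103, a second deacetylase inhibitor. Each SE comes from a spread pooled over these 24 arrays and is not the spread of the compared replicates alone. On the 6 T247 arrays, 50.5% to 58.3% of spots were well above background and no spot was saturated. Correlations of log2 values between replicates were 0.994 to 0.995 for the T247 2-cell arrays and 0.988 to 0.994 for the T247 4-cell arrays. Replicate 1 of the 2-cell control group stood apart, with correlations down to 0.936 within its group, and it correlated with the T247 2-cell arrays at 0.949 to 0.952. Differences of changes between T247 and untreated embryos, for gene lists and single genes, are therefore also given without it. That array also enters every SE, those of the T247 change included. For Mocs3 the SDs were 0.11 and 0.09 in the 2 T247 groups and 1.75 in the 2-cell control group. The SE of its T247 change was 0.485. The T247 2-cell arrays and replicate 1 of the T247 4-cell group were on 1 slide, and T247 4-cell replicates 2 and 3 on another. Control arrays of the 2 stages with the same replicate number shared a slide, with 1 slide for each number. Control and T247 arrays shared no slide, so treatment and slide cannot be told apart wherever the 2 are compared.

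Of 8 stage markers, 6 were called lower in the T247 4-cell embryos and 2 stood higher without a call. Zscan4c, of the 2-cell Zscan4 cluster, gave 11.27, 11.88 and 11.77 on the T247 2-cell arrays and 9.63, 8.56 and 8.91 on the T247 4-cell arrays, a change of -2.61 ± 0.47 (SE; adjusted p = 4e-05, limma, n = 3 and 3). Gdf9, a growth factor of the oocyte, gave 14.57, 14.56 and 14.55 and then 12.03, 12.18 and 11.86 (change -2.54 ± 0.17). The 2 stages did not overlap for either gene. Pou5f1, the factor known as Oct4, gave 12.75, 12.78 and 12.64 and then 10.46, 10.11 and 10.35, a fall of 2.42 on the log2 scale, and Sox2 fell by 3.19. Cdx2, a factor of the trophectoderm that was well above background on 2 of the 3 T247 4-cell arrays, fell by 2.79. Nanog was well above background on 1 of the 3 T247 4-cell arrays and its call depends on the probe, with -1.32 for the brightest probe and 1.03 for the mean of its probes. Zp3, a protein of the egg coat, went the other way, from 9.53, 9.35 and 9.52 to 10.41, 10.47 and 10.43, a change of 0.97 that lay just under the threshold (adjusted p = 3.62e-05, limma) and passed it with 75th percentile scaling (1.12). Dppa3, a maternal factor that protects DNA methylation, gave 14.87, 15.17 and 15.09 and then 15.73, 15.78 and 15.85 (change 0.74, adjusted p = 0.0044, limma). The 2 stages did not overlap for Zp3 or Dppa3. Markers of cells that could be carried into the samples were also read. Of 19 cumulus and granulosa cell markers 9 passed the detection filter, and their summed normalized intensity was 8284 to 8813 at the 2-cell and 8305 to 9599 at the 4-cell stage, most of it from Foxl2. Of 20 sperm markers 12 passed, with sums of 3528 to 3645 at the 2-cell and 1727 to 2094 at the 4-cell stage, and of 13 blood cell markers 9 passed, with sums of 17953 to 19712 at the 2-cell and 9959 to 14276 at the 4-cell stage. The sperm and blood sums were thus lower at the 4-cell stage, and their part in the falls was not tested. Ptprc and Adgre1, which define leukocytes and macrophages, were well above background on none of the 6 arrays. Of the 9 measured blood cell markers, however, 6 were well above background on all 6 arrays.

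From the 2-cell to the 4-cell stage of T247 embryos, 4686 genes rose and 5122 fell, together 61.3% of the 15990 genes tested (29.3% higher and 32.0% lower). The median of the absolute log2 changes was 1.42, against a median SD between replicates of 0.11 for the 2-cell arrays and 0.19 for the 4-cell arrays. Changes of at least 16-fold were called for 471 genes that rose and 620 that fell. The 3 arrays of one stage did not overlap with the 3 of the other for 82.9% of the genes. The share called is the background against which the gene lists are read. The median change over all genes was -0.08, and 0.01 and 0.09 with 75th percentile scaling and quantile normalization. In pooled embryos, fewer cells of a type and less RNA per cell cannot be told apart. Within the slide that held both stages (3 T247 2-cell arrays and 1 T247 4-cell array), the median change over all genes was -0.05. These arrays are also part of the full comparison and the 4-cell side is 1 array, so this is not a separate check.

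**Figure D1:**
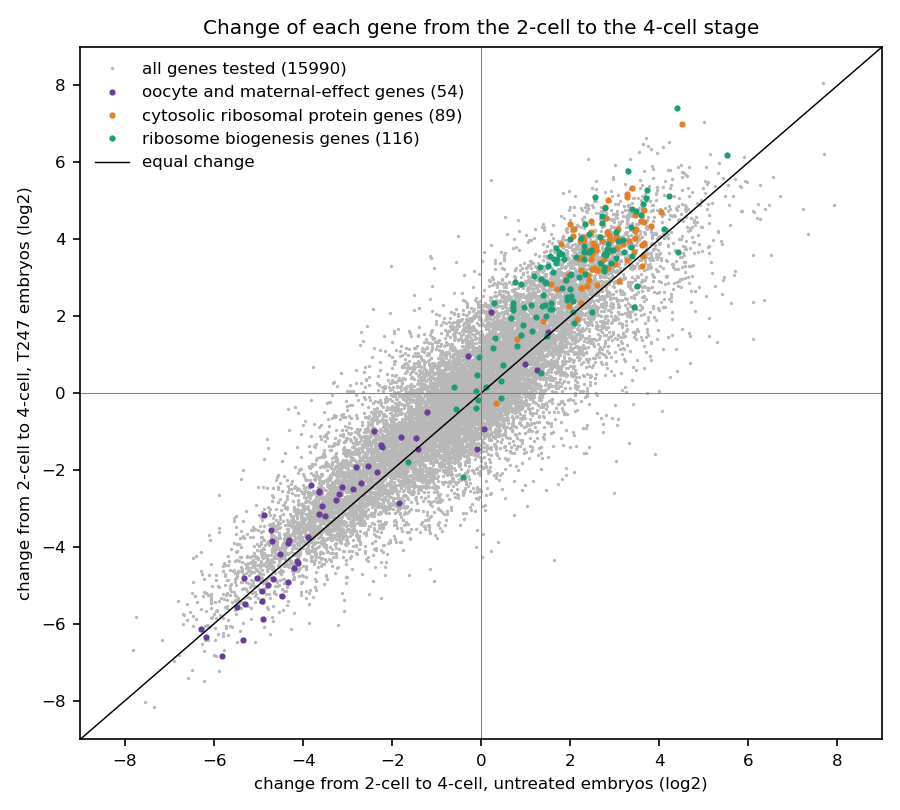
Each point is a gene, with its log2 change from the 2-cell to the 4-cell stage in untreated embryos on the x axis and in T247 embryos on the y axis (means of 3 arrays per group), and the line marks equal change. Ribosomal protein genes and ribosome biogenesis genes lie mostly above the line in the upper right, and oocyte and maternal-effect genes lie mostly along it in the lower left.

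The 12 largest rises among genes well above background on all 6 arrays were of genes with varied known roles. Rps27, a protein of the small ribosomal subunit, gave 9.08, 9.01 and 9.07 on the 2-cell arrays and 16.03, 15.84 and 16.28 on the 4-cell arrays, a rise of 128-fold (SE 0.24 on the log2 scale, adjusted p = 2.48e-15, limma). All 3 of its 4-cell arrays lay far above the 2-cell arrays. Cd63, a tetraspanin of endosomes and lysosomes, went from 10.45, 10.05 and 9.95 to 16.68, 16.83 and 16.81, a rise of 6.62 ± 0.53. Ctsa, the lysosomal protective protein cathepsin A, went from 10.40, 10.19 and 10.11 to 16.65, 16.75 and 16.57, a rise of 6.42 ± 0.17. Psmb5, a catalytic subunit of the proteasome, rose by 6.34 ± 0.48 from 8.89, 8.77 and 8.62 to 14.97, 14.95 and 15.37. For all 4 genes the 2 stages did not overlap, and the replicates of a stage lay close together beside the gap. Taf1c, part of the factor that brings RNA polymerase I to ribosomal DNA, rose by 6.20 from low 2-cell values of 4.38, 4.75 and 4.79. Mocs3 (sulfur transfer to the molybdenum cofactor and tRNA) rose by 6.48, Tor1b (a torsin ATPase of the endoplasmic reticulum) by 6.25, Bcl2l14 (a BCL2 family member) by 6.21, and Sycn (syncollin, known from pancreatic secretory granules) by 6.22. Susd6 and Bri3bp rose by 6.40 and 6.27, and the pseudogene Pdxk-ps by 6.54, for which signal from the parent gene Pdxk cannot be told apart. In untreated embryos the rises were 4.51 for Rps27, 3.71 for Cd63, 4.21 for Pdxk-ps, 3.64 for Mocs3, 3.76 for Ctsa and 4.08 for Susd6. They were 3.80 for Psmb5, 3.53 for Bri3bp, 3.94 for Tor1b, 5.13 for Bcl2l14 and 5.53 for Taf1c, all below those under T247. For Taf1c the difference was 0.68, which was not called, and 0.44 without 2-cell control replicate 1. For the others it was called, from 1.08 (Bcl2l14) to 2.915 (Cd63). Without that replicate their differences were 1.25 (Bcl2l14) to 3.85 (Mocs3). Sycn rose more without T247, by 7.69 (difference -1.47 ± 0.35, adjusted p = 0.00266, limma, and -1.44 without 2-cell control replicate 1). These genes were chosen for a large rise under T247, so a smaller untreated rise is in part a product of the choice.

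**Figure D2:**
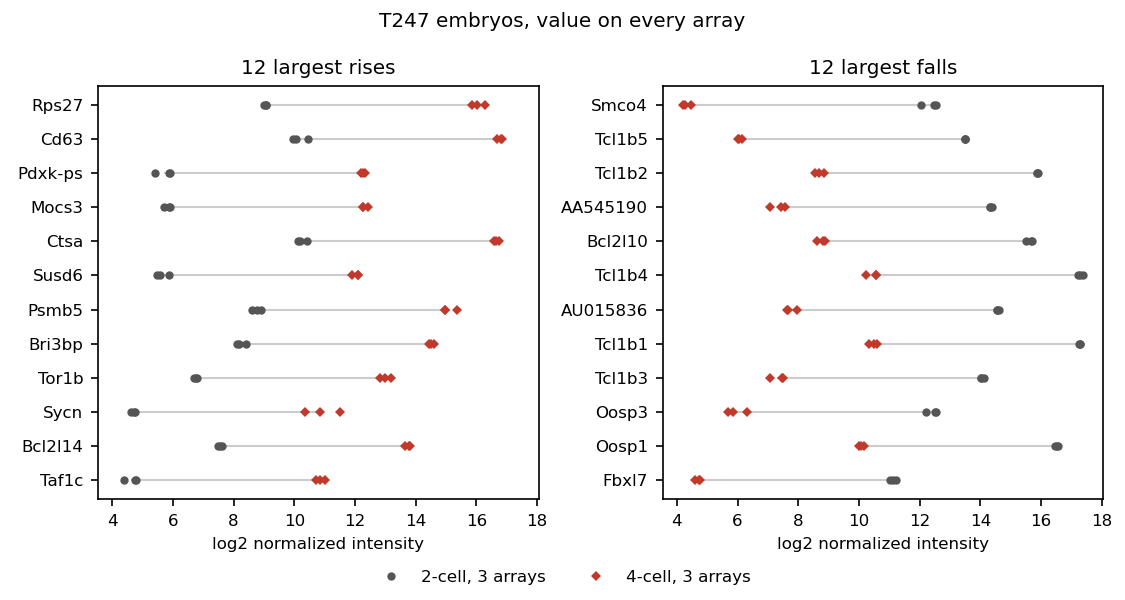
Log2 normalized intensity on each of the 6 T247 arrays for the 12 genes with the largest rise (left) and the 12 with the largest fall (right) among genes well above background on all 6, with grey circles for the 3 arrays of the 2-cell stage and red diamonds for the 3 of the 4-cell stage. In every row the 2 stages are separated by more than 6 log2 units between their means, and the replicates of a stage lie close together.

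The largest falls included several oocyte genes, and 5 of the 12 belong to 1 gene cluster. Tcl1b5, of the TCL1 family of oncoprotein-like genes that oocytes express, gave 13.49, 13.48 and 13.48 on the 2-cell arrays and 6.03, 6.03 and 6.16 on the 4-cell arrays, a level 170.1-fold lower (log2 change -7.41 ± 0.11, adjusted p = 3.45e-20, limma). Tcl1b2 changed by -7.19, Tcl1b4 by -6.83, Tcl1b1 by -6.81 and Tcl1b3 by -6.71, and their neighbour Tcl1 by -5.57. The 5 Tcl1b genes are similar in sequence, so their probes may share signal and the 5 values may not be 5 separate measurements. In the RefSeq annotation (GRCm38.p6) these 6 genes follow each other on chromosome 12 with no other gene between them. Bcl2l10, an oocyte BCL2 family member, went from 15.49, 15.70 and 15.67 to 8.63, 8.89 and 8.80 (change -6.85 ± 0.29). Oosp1 and Oosp3, secreted proteins of the oocyte, changed by -6.43 and -6.47. Smco4, a small membrane protein, had the largest fall, from 12.06, 12.55 and 12.47 to 4.46, 4.27 and 4.19 (change -8.05 ± 0.46). The F-box gene Fbxl7 and the uncharacterised AA545190 and AU015836 changed by -6.42, -6.98 and -6.81. In untreated embryos the same 12 genes changed by -7.54 to -5.07, and all 12 were called lower there too.

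The sequences just before the starts of the Tcl1 cluster genes are shown because these neighbours fell together. Each line gives the 100 bases before the annotated start, 5′ to 3′ along the gene (RefSeq, GRCm38.p6), and capitals mark the 25 letters AGAACTAGGTTTCTTATTCTGCCCT, the longest run that all 5 Tcl1b windows share. They begin 28 to 57 bases before the start. The 250 bases before the start of 5 of 12565 genes tested hold them on either strand, 0.0398% of all, and Tcl1 does not. The letters were taken from the 5 Tcl1b windows, so these 5 genes were fixed by the choice. Pairs of these windows, compared base by base at the same distance from the start and not aligned, were 19% to 95% identical. The shared letters lie at different distances from the start in some windows, and such a shift lowers these values. Whether the run reflects copies of similar sequence, and a part of it in the falls, was not tested. The windows lie at chr12:105146919-105147018, plus strand (Tcl1b2), chr12:105159604-105159703, plus strand (Tcl1b1), chr12:105176244-105176343, plus strand (Tcl1b5), chr12:105190945-105191044, plus strand (Tcl1b3), chr12:105202295-105202394, plus strand (Tcl1b4), chr12:105222738-105222837, minus strand (Tcl1).
Tcl1b2: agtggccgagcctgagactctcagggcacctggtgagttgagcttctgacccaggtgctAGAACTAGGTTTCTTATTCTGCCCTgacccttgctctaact
Tcl1b1: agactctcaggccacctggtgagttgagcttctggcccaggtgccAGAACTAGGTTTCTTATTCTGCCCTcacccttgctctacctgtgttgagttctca
Tcl1b5: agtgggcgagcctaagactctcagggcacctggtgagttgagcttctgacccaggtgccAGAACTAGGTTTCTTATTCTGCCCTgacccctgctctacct
Tcl1b3: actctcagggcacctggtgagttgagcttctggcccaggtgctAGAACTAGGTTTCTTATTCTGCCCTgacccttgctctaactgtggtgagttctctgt
Tcl1b4: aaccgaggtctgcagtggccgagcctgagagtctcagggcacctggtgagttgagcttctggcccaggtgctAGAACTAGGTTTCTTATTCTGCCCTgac
Tcl1: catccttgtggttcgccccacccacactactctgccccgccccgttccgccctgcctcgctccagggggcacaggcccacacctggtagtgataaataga

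The letters CCGGAAG, the core of ETS family binding sites, were in a larger share of the promoters of genes that rose than of genes that fell. Of 3647 rising genes with a RefSeq promoter, 17.2% held them on either strand within 250 bases before the start, against 8.55% of 4084 falling genes and 11.9% of all 12565 genes tested. Among changes of at least 16-fold the shares were further apart (21.8% of 353 against 4.77% of 503). The E-box CACGTG, which is its own reverse complement, was in 14.2% of the promoters of genes that rose at least 16-fold and 4.57% of those that fell as much (7.82% of all). The TATA box letters TATAAA went the other way, with 5.67% and 12.7% (8.68% of all). GC boxes (GGGCGG) were in 55.4% of rising and 52% of falling genes, and CCAAT boxes in 34% and 37.4%. The medians of CpG dinucleotides per 100 bases were 5.6 and 3.6 for genes that rose and fell at least 16-fold, so base composition moved with these shares and its part in them was not tested. These are counts of letters, with no test.

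The 5 named genes with the largest rise whose 100 bases before the start hold CCGGAAG, or its reverse complement CTTCCGG, are shown with these letters in capitals. Taf1c rose by 6.20, Eif3c (a subunit of the translation initiation factor that binds the small ribosomal subunit) by 6.09, Pfdn6 (a prefoldin subunit, a chaperone of tubulin and actin) by 5.80, Ndufaf1 (an assembly factor of respiratory complex I) by 5.52 and Mrpl43 (a protein of the large mitochondrial ribosomal subunit) by 4.92. The windows lie at chr8:119605207-119605306, minus strand (Taf1c), chr7:126566367-126566466, minus strand (Eif3c), chr17:33940344-33940443, minus strand (Pfdn6), chr2:119662835-119662934, minus strand (Ndufaf1), chr19:45006443-45006542, minus strand (Mrpl43).
Taf1c: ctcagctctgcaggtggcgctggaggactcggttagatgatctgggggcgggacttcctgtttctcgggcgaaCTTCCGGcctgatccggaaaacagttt
Eif3c: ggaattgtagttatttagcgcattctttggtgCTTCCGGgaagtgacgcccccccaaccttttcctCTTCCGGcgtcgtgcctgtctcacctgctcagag
Pfdn6: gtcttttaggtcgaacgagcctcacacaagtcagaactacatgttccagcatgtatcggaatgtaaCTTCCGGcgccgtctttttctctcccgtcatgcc
Ndufaf1: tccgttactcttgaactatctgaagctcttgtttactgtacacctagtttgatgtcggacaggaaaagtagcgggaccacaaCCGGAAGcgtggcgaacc
Mrpl43: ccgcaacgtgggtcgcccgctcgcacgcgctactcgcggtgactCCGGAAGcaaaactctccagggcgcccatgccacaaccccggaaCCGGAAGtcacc

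Genes of ribosome production rose with few exceptions. Of the cytosolic ribosomal protein genes, 88 of 89 measured genes rose and 0 fell, with a median change of 3.77 against -0.08 over all genes. Rpl7 of the large subunit gave 10.87, 10.80 and 10.73 at the 2-cell stage and 16.17, 16.07 and 16.18 at the 4-cell stage (change 5.34 ± 0.34, adjusted p = 1.44e-11, limma), and Rps15 of the small subunit rose by 5.18. The member that was not called was Rps27l (-0.26), a relative of Rps27 that is known as a p53 target, and all others rose, the least being Rplp0 of the ribosomal stalk (1.42). Near-identical processed copies of ribosomal protein genes may share signal with these probes. Of the ribosome biogenesis genes, 102 of 116 measured genes rose and 2 fell, with a median of 3.12. Nob1, an endonuclease that matures the RNA of the small subunit, went from 4.77, 4.16 and 4.34 to 10.29, 10.34 and 9.95 (change 5.77 ± 0.30). Tbl3, part of the complex that processes the RNA of the small subunit, was called higher by 7.41, but only 1 of the 3 T247 2-cell arrays measured it well above background. The 2 that fell were Riok1 (-1.79), a kinase of late small-subunit maturation, and Utp18, a processome component. Utp18 was well above background on all 3 T247 2-cell arrays and on no T247 4-cell array, at least 4.61-fold lower there.

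The other growth lists also moved upward, beside 29.3% of all genes that rose and 32.0% that fell. Of the mitochondrial ribosomal protein genes, 57 of 77 measured genes rose and 6 fell with a median of 2.04. They include Mrpl20 (5.54) and Mrpl43 among the rises and Mrps25 (-2.54, but 0.42 for the mean of its probes) among the falls. Of the respiratory chain and ATP synthase genes, 65 of 98 measured genes rose and 7 fell (median 1.66). Ndufb7 of complex I rose by 4.83 and Cox7c of complex IV by 4.57, while Cox6a2 and Cox6b2, which are forms of complex IV subunits known from muscle and from the male germ line, changed by -5.38 and -2.25, the first well above background on 2 of 3 T247 4-cell arrays. Of the proteasome subunits, 34 of 46 measured genes rose and 5 fell (median 2.06). Besides Psmb5, the assembly chaperone Psmg3 rose by 4.80 and the regulatory ATPase Psmc2 by 4.75. Psmd9, an assembly factor of the regulatory particle, fell by 2.55 on the log2 scale, and the activator Psme4 and the inhibitor Psmf1 by 1.70 and 1.43. Of the translation initiation factors, 29 of 51 measured genes rose and 6 fell. Eif3c, Eif3g and Eif3m rose by 6.09, 4.87 and 4.56, whereas the oocyte factor went the opposite way. Eif4e1b, a cap-binding protein known from oocytes, went from 15.94, 16.04 and 16.20 to 10.02, 10.33 and 10.31 (change -5.84 ± 0.22). Of the aminoacyl-tRNA synthetase genes, 17 of 23 measured genes rose and 3 fell, from Hars (4.18) to Fars2 (-3.65), the mitochondrial enzyme for phenylalanine. Of the spliceosome genes, 56 of 94 measured genes rose and 7 fell, with Srsf6 at 4.32 and Sf3b1, a core protein that recognises the branch point, at -4.35. Of the heat shock and chaperone genes, 29 of 55 measured genes rose and 10 fell, with Pfdn6 at 5.80, the chaperonin subunit Cct4 at 3.89 and the inducible Hspa1a at -2.10.

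**Figure D3:**
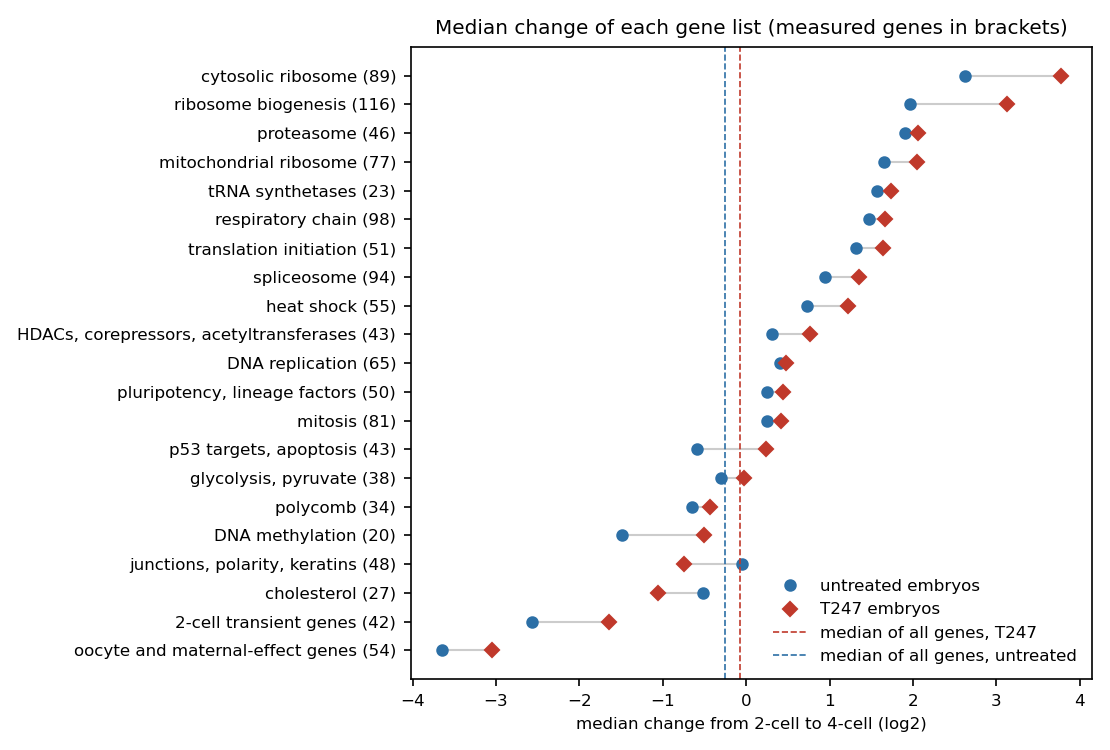
Median log2 change from the 2-cell to the 4-cell stage over the measured genes of each list (number in brackets), with red diamonds for T247 embryos, blue circles for untreated embryos and dashed lines at the medians of all genes tested. Ribosome lists have the highest medians in T247 embryos and lie furthest above the untreated values, and oocyte and 2-cell genes have the lowest medians.

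Maternal RNAs fell. Of the oocyte and maternal-effect genes, 2 of 54 measured genes rose and 46 fell, with a median of -3.05. Wee2, the kinase that holds oocytes in meiotic arrest, went from 12.23, 12.27 and 12.36 to 5.88, 6.16 and 5.79 (change -6.35 ± 0.13, adjusted p = 3.73e-18, limma), with no overlap. The 2 that rose were Sohlh1, an oocyte transcription factor (2.10), and Zfp36l2, an RNA decay factor (1.59). Zp3 and Dppa3, which stood higher, are among the members that were not called. Genes known for a transient burst in 2-cell embryos split, since 6 of 42 measured genes rose and 23 fell. Tmem92 went from 15.09, 14.81 and 15.11 to 10.40, 10.32 and 10.20 (change -4.70 ± 0.19), and Zscan4b and Zscan4f fell by 3.92 and 3.71 on the log2 scale. The Zscan4 genes are near-identical copies whose probes may share signal. The members that rose included Trim43b (5.33), the homeobox gene Obox6 (4.63) and Fbxo15 (3.26), the last also known from embryonic stem cells.

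Pluripotency and first-lineage factors had no common direction, as 18 of 50 measured genes rose and 19 fell (median 0.44, 74.0% called). Sox15 rose from 5.59, 6.08 and 6.00 to 11.65, 11.41 and 11.53 (change 5.64 ± 0.31). Dppa2 and Dppa4, a pair of proteins that act together on chromatin of early embryonic genes, rose by 4.46 and 4.37. Eomes and Elf3, factors of trophectoderm and epithelium, changed by -3.46 and -3.66. Of the cell junction, polarity and keratin genes that serve later compaction, 11 of 48 measured genes rose and 19 fell, with claudin Cldn7 at 3.30, the polarity kinase Prkcz at 3.45, the desmosomal plakophilin Pkp2 at -3.42 and the laminins Lama1 and Lamc1 at -3.33 and -3.41. The share of this list that was called, 62.5%, was near the 61.3% of all genes.

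Among the zinc-dependent deacetylases, the enzyme class that T247 acts on, Hdac1 had the largest called rise with smooth quantile normalization and not with quantile normalization, which gave 1.25 for Hdac1, 1.68 for Hdac5 and 2.10 for Hdac4. Hdac1 gave 13.29, 13.12 and 13.08 on the T247 2-cell arrays and 15.10, 15.19 and 15.12 on the T247 4-cell arrays, a rise of 1.97 ± 0.21 (adjusted p = 4.53e-08, limma). Hdac2 stood at 0.27 and was not called. Hdac3, the enzyme T247 is described to inhibit, had no T247 array, of 6, well above background, so no change is given. Of the class II enzymes, Hdac4 rose by 1.43 (0.65 and not called with normexp background correction), Hdac5 by 1.85 and Hdac7 went the other way, from 8.25, 8.16 and 7.87 to 7.04, 6.92 and 7.03 (change -1.10 ± 0.20), a call that was lost with quantile normalization (-0.94), with normexp (-0.81) and in a test against a 2-fold change. Against untreated embryos Hdac7 was higher in 1-cell (2.65), 2-cell (3.10) and 4-cell embryos (1.62), all 3 called. Hdac9 was called lower by 4.10 on the log2 scale, with 1 T247 4-cell array well above background, and lower by 1.85 with normexp. Hdac6 (0.85), Hdac8 (-0.98) and Hdac10 (0.36) were not called. Hdac6 passed the threshold with 75th percentile scaling, and Hdac8 under 6 alternatives, within the shared slide among them (-1.34). Hdac11 was not among the genes tested. Over the whole list of deacetylases, corepressor subunits and acetyltransferases, 18 of 43 measured genes rose and 8 fell. The share called was 60.5%, beside 61.3% of all genes. Mta2, of the deacetylase complex NuRD, rose by 3.64, its relative Mta1 changed by -3.10, and the acetyltransferase Crebbp by -2.38.

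Among genes of DNA methylation, 3 of 20 measured genes rose and 9 fell (15.0% and 45.0%). The share called, 60.0%, was near the 61.3% of all genes, of which 29.3% rose and 32.0% fell. Dnmt3a, a de novo methyltransferase, was well above background on all 3 T247 2-cell arrays and on no T247 4-cell array, at least 19.4-fold lower there. Dnmt3l, its cofactor, changed by -2.40, Uhrf1, which guides maintenance methylation, by -2.48, the demethylase Tet3 by -2.94 and Zfp57, a guardian of imprints, by -2.79. Dnmt1 stood at 0.30 and Trim28, the partner of Zfp57, rose by 2.57. Of the Polycomb genes, 6 of 34 measured genes rose and 14 fell (58.8% called). Mtf2, an accessory protein of the complex that methylates histone H3, rose by 5.48, and Scmh1, Phc1 and Phf1 changed by -4.43, -4.11 and -4.02.

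Cell cycle lists were mixed. Of the DNA replication genes, 25 of 65 measured genes rose and 12 fell (median 0.48), with Gins3 of the replicative helicase at 3.90, the polymerase Pole at 3.76, the histone chaperone Asf1a at -4.10 and the origin subunit Orc5 at -3.39. Of the G2/M and chromosome segregation genes, 31 of 81 measured genes rose and 15 fell (median 0.42), with the kinesin Kif2c at 3.96, the cohesin Smc3 at 3.62, the kinetochore protein Nuf2 at -3.62 and the centriole kinase Plk4 at -3.52. Both shares called were below the background of 61.3% (56.9% and 56.8%). Of the p53 target and apoptosis genes, 11 of 43 measured genes rose and 15 fell (60.5% called). Bax, which opens mitochondria in apoptosis, went from 7.79, 7.80 and 7.87 to 12.18, 12.20 and 12.26 (change 4.39 ± 0.10), Ddit4, an inhibitor of mTOR signalling, rose by 2.88, and the antiproliferative gene Btg2 changed by -4.02.

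In energy and lipid metabolism, 10 of 38 measured genes rose and 15 fell in the glycolysis, pyruvate and lactate list (26.3% and 39.5%). The share called, 65.8%, was near the 61.3% of all genes, of which 29.3% rose and 32.0% fell. Hexokinase Hk1 went from 12.77, 12.66 and 12.60 to 15.96, 15.95 and 16.04 (change 3.31 ± 0.16) and Pgam1 rose by 2.46. Ldhb, the lactate dehydrogenase subunit stored by the oocyte, went from 14.94, 15.14 and 15.20 to 11.40, 11.54 and 11.09 (change -3.75 ± 0.19), the glucose transporter Slc2a1 changed by -3.46 and Pdk3, a kinase that inhibits pyruvate dehydrogenase, by -5.19. Of the cholesterol genes, 6 of 27 measured genes rose and 14 fell (22.2% and 51.9%, 74.1% called), with Pmvk at 3.13, the sterol enzyme Nsdhl, well above background on 2 of 3 T247 4-cell arrays, at -4.06, and Idi1 at -2.32.

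Some genes were detected at only 1 of the 2 stages. Of 22339 named genes on the arrays, probes of 1729 were well above background on all 3 T247 2-cell arrays and on no T247 4-cell array. Probes of 606 genes showed the reverse. Of these, 1263 and 343 genes had no other probe well above background at the dim stage. More spots were well above background on the T247 2-cell arrays (54.0% to 58.3%) than on the T247 4-cell arrays (50.5% to 52.8%). The part of this in the imbalance was not tested. After all probes had been normalized together, a bound on the fold was computed against the lowest signal well above background on each dim array, or the probe's own signal where that was higher. Among genes lost from the 2-cell to the 4-cell stage, Prl8a2, a prolactin family member known from decidua, gave 9.73, 10.29 and 10.10 at the 2-cell stage and was at least 112-fold lower at the 4-cell stage (adjusted p = 6.04e-20, limma). Prr32 was at least 93.9-fold lower, the alpha tubulin-like Tubal3 at least 63.4-fold, Stxbp6 (amisyn, a regulator of vesicle fusion) at least 61.5-fold, the endocytic adaptor Dab2 at least 58-fold and integrin Itga8 at least 57.2-fold lower. All 6 were also well above background on the 3 control 2-cell arrays and on no control 4-cell array. Syngr1, a synaptogyrin of vesicle membranes, gave 11.01, 10.81 and 11.46 at the 4-cell stage and was at least 183-fold higher there, with no probe well above background on the T247 2-cell arrays. It was well above background on 2 of the 3 control 2-cell arrays. Trmt61b, an RNA methyltransferase of mitochondria, was at least 80.7-fold higher, while all 3 control 2-cell arrays measured it well above background. The probes for Ppat, Nrf1, Hipk3, Med14, Wdr18 and Nfyb had bounds of 95.2-fold to 164-fold higher, but another probe of each gene was well above background on the 2-cell arrays. The same holds for Sipa1l1 and Bend5 among the falls, so for these 8 genes the value belongs to a probe and not to the gene.

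Most changes under T247 were also made in untreated embryos. Untreated embryos had 3937 genes called higher and 5595 lower, 59.6% of those tested (24.6% and 35.0%). Of the rises, both transitions called 3305 genes higher, 83.9% of the untreated rises and 70.5% of the T247 rises. Of the falls, both called 4319 lower, 77.2% of the untreated falls and 84.3% of the T247 falls. These are separate arrays, and across the 15990 genes, which are not independent replicates, the changes correlated with r = 0.885 (0.836 without 2-cell control replicate 1). Opposite calls were made for 65 genes that rose under T247 and fell without it and 38 that did the reverse (155 and 57 without that replicate). Calls made in T247 embryos and in neither direction in untreated embryos numbered 1316 rises and 765 falls, but the difference between the transitions itself passed the test for 779 and 385 of them.

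Each array was given a position between the untreated stages, with 0 at the average 2-cell control and 1 at the average 4-cell control. A control array did not count toward its own group's average. The T247 2-cell arrays stood at 0.0007, -0.0147 and -0.0134 and the control 2-cell arrays at -0.0483, 0.111 and 0.0653, with replicate 1 of the control the lowest of all. The T247 4-cell arrays stood at 0.895, 0.853 and 0.912, each below every control 4-cell array (0.975, 0.999 and 0.988). The means at the 4-cell stage were 0.887 ± 0.0303 for T247 and 0.987 ± 0.012 for the control (SD, n = 3), a difference of -0.101 (exact permutation test, two-sided, p = 0.1, the smallest p that 3 against 3 arrays can give). At the 2-cell stage the difference was -0.0517 (exact p = 0.4), within the spread of the controls. The position is a share of the way between 2 untreated means and measures only change along that line.

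The difference between the transitions, (T247 4-cell minus 2-cell) minus (control 4-cell minus 2-cell), was called for 2969 genes with a higher and 1268 with a lower value under T247, 26.5% of genes (18.6% and 7.93%). This split depends on the scaling, because the median difference over all genes was 0.28 here and -0.06 with 75th percentile scaling, under which 1700 were called higher and 2074 lower. The calls shared by smooth quantile, 75th percentile and quantile normalization were 1573 higher and 1242 lower. Without 2-cell control replicate 1 the counts were 3713 and 1903. Of the higher differences, 1250 were rises that were larger under T247, 864 were falls that were smaller and 855 had estimates of opposite sign. Of the lower ones, 395 were smaller rises, 462 larger falls and 411 of opposite sign.

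Of the 6 largest higher differences, 5 were of genes that rose under T247 and 4 of genes that fell without it. Igfbp2, which binds insulin-like growth factors, gave 5.82, 5.18 and 5.17 and then 8.57, 8.85 and 8.64 in T247 embryos, and 5.65, 8.99 and 8.51 and then 5.63, 5.93 and 5.50 in untreated ones. The difference of changes was 5.33 ± 0.77 (SE; adjusted p = 2.59e-05, limma), and the 4-cell arrays of the 2 treatments did not overlap, while untreated 2-cell replicate 1 lay near the T247 2-cell arrays. Eid2, known as an inhibitor of EP300-dependent differentiation, was low in T247 2-cell embryos (4.62, 4.42 and 5.03) against 7.38, 10.24 and 9.96 in untreated ones, and at the 4-cell stage stood at 10.23 and 9.40 (difference 5.32 ± 0.63). Cd24a, a glycoprotein of the cell surface, rose by 3.52 under T247 and changed by -1.12 without it. Fzd2, a Wnt receptor, stood at 0.68 under T247, which was not called (9.09, 8.77 and 8.84, then 9.63, 10.20 and 8.92) and fell without it (8.96, 10.98 and 10.89, then 6.90, 6.36 and 6.28), a difference of 4.45 ± 0.69. Hspb1, a small heat shock protein, went from 11.68 to 13.44 under T247 and from 13.38 to 10.81 without it (difference 4.32 ± 0.45). Tssk6, a kinase known from testis, had a difference of 4.60 ± 1.26 (adjusted p = 0.00656, limma), with untreated 2-cell values of 4.99, 10.60 and 10.10. For these 6 genes, replicate 1 of the 2-cell control was the lowest of its group, and the differences without it were 4.94 to 6.38. For Igfbp2, Cd24a, Tssk6 and Fzd2 that array lay within the range of the T247 2-cell arrays. The higher untreated 2-cell level of these genes thus rests on control replicates 2 and 3. For Eid2 and Hspb1 all 3 control 2-cell arrays lay above the T247 2-cell arrays.

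The largest lower differences were of genes that stood higher in T247 than in untreated embryos at the 2-cell stage. Xbp1, the transcription factor of the unfolded protein response, gave 10.76, 10.66 and 10.74 in T247 2-cell embryos and 7.59, 6.07 and 5.93 in untreated ones, and at the 4-cell stage 6.53, 6.74 and 6.10 and 6.54, 6.41 and 6.68. Its fall of 4.26 on the log2 scale under T247 stood beside 0.01 without it, a difference of -4.28 ± 0.49 (adjusted p = 2.5e-06, limma), and the 4-cell arrays overlapped between treatments. Plekhf1, a protein of endosomes and lysosomes, went from 9.19, 8.82 and 9.06 to 7.92, 7.22 and 7.99 under T247 and from 5.58, 6.33 and 5.60 to 9.21, 9.37 and 8.92 without it (difference -4.64 ± 0.35), so that the order of the treatments turned between the stages. The same turn of order was called in Sgk1, Plcd1 and Ccdc61 and in Tagln2, an actin-binding protein (T247 11.97 then 9.83, untreated 9.68 then 11.59). Sgk1, a kinase of the insulin and stress response, rose by 1.34 under T247 and 5.29 without it (difference -3.96 ± 0.33). Plcd1, a phospholipase C, and Ccdc61, a centriole protein, changed by 0.78 and 0.42 under T247, neither of them called, and rose by 4.69 and 4.24 without it. Without 2-cell control replicate 1 the 6 lower differences were -4.81 to -3.50. All 12 genes kept their direction under the 3 normalizations and without 2-cell control replicate 1.

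**Figure D4:**
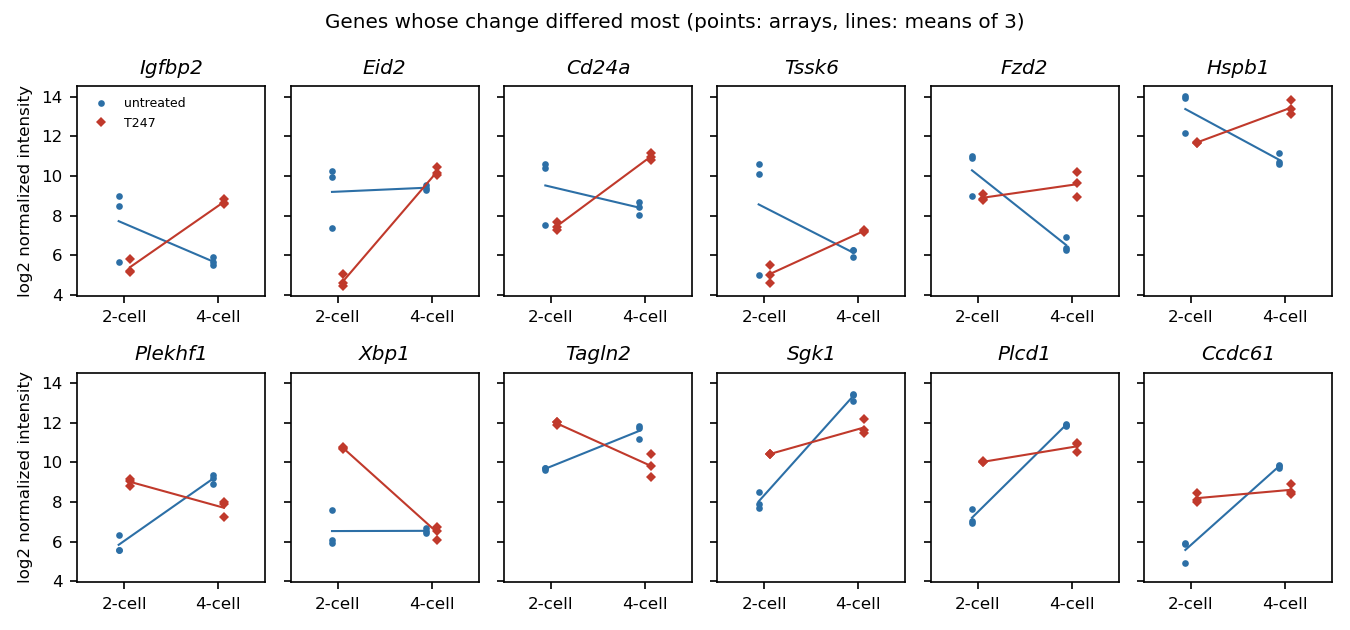
Log2 normalized intensity at the 2-cell and 4-cell stages for the 12 genes with the largest difference of changes, with red diamonds for the 3 T247 arrays, blue circles for the 3 control arrays of each stage and lines through the means. In the upper row T247 embryos end above the untreated ones from a lower 2-cell mean, and in the lower row they start above them and end below or beside them.

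More ribosome genes had a higher than a lower difference between the transitions. The median rise of cytosolic ribosomal protein genes was 3.77 under T247 and 2.62 without it, and the difference was called higher for 44 and lower for 0 of 89 genes (21 and 0 with 75th percentile scaling, 52 and 0 without 2-cell control replicate 1). Over all 15990 genes it was called higher for 18.6% and lower for 7.93%. With 75th percentile scaling 1700 of them were called higher and 2074 lower, and without that replicate 3713 and 1903. The counts of each list are read beside these. Side by side, the median of T247 minus control was -1.21 in 2-cell and -0.30 in 4-cell embryos, where the medians over all genes were -0.26 and -0.02. For ribosome biogenesis genes the difference was called higher for 52 and lower for 1 of 116 (35 and 5 with 75th percentile scaling, 66 and 4 without that replicate), and their median of T247 minus control was -1.19, then -0.24. Rps27 had a difference of 2.48 ± 0.35 (2.94 without the replicate), with 9.05 against 12.00 at the 2-cell stage and 16.05 against 16.52 at the 4-cell stage, T247 given first. The 2-cell transient genes had 13 higher and 1 lower differences of 42 (7 and 1 with 75th percentile scaling, 14 and 2 without the replicate). Zscan4c changed by -2.61 under T247 and -4.01 without it (difference 1.40 ± 0.66, adjusted p = 0.0938, limma), and without 2-cell control replicate 1 its difference was 0.67 (adjusted p = 0.253, limma). Lineage factors had 7 higher and 12 lower differences of 50, a balance that turned to 12 and 10 without 2-cell control replicate 1 and stood at 6 and 15 with 75th percentile scaling. Pou5f1 was among the lower ones (-1.13 ± 0.23, adjusted p = 0.000802, limma, and -1.08 without the replicate). Sox2 was well above background on all 3 T247 4-cell arrays and on no control 4-cell array. Of the deacetylases, Hdac1 had a difference of 1.31 ± 0.30 (1.63 without the replicate, and 0.97 and not called with 75th percentile scaling). Hdac7 had one of -1.48 ± 0.29 (-1.75 without the replicate, and -0.98 and not called with normexp). Respiratory chain genes had 12 higher and 7 lower differences of 98, both below the shares of all genes. The counts were 21 and 10 without the replicate and 3 and 11 with 75th percentile scaling, which turned the balance. Mitochondrial ribosomal protein genes had 13 and 10 of 77, 18 and 13 without the replicate and 8 and 13 with 75th percentile scaling, so neither list had a common direction. Cell junction, polarity and keratin genes had 3 and 8 of 48, 7 and 12 without the replicate and 0 and 13 with 75th percentile scaling.

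Genes raised by T247 at the 1-cell stage, chosen on arrays that the 2-cell to 4-cell comparison does not use, were still above the untreated level at both later stages as a group. The T247 1-cell arrays were on the slide of the T247 2-cell arrays and T247 4-cell replicate 1, apart from all controls. Slide and treatment therefore cannot be told apart in the choice or at the later stages. T247 against control at the 1-cell stage (12 h after insemination) called 893 genes higher (5.58% of those tested) and 0.894% lower, 6.48% in all. From the 2-cell to the 4-cell stage of T247 embryos 185 of them rose and 181 fell, with a median change of -0.02, and in untreated embryos 171 rose and 184 fell (median -0.05). The shares called, 20.7% and 20.3%, were below the 29.3% and 32.0% of all genes. Their median of T247 minus control was 1.39 at the 1-cell, 0.93 at the 2-cell and 0.91 at the 4-cell stage, the first of which the choice fixed. Of the 10 with the largest 1-cell difference, Vax2, a homeobox gene of the ventral eye, gave 11.43, 11.33 and 11.06 at the 2-cell and 10.79, 10.62 and 10.93 at the 4-cell stage of T247 embryos, against untreated means of 7.12 and 8.77. Its change of -0.50 under T247 was not called, and it rose by 1.64 without it. Magef1, of the MAGE family, stood at a change of 0.13 while the untreated level rose by 1.98, and T247 remained 3.22 above the control at the 4-cell stage. Mrgprg, a Mas-related receptor of sensory neurons, and Gm6811 stood 3.27 and 4.06 above the control at the 4-cell stage, where 1 of the 3 control arrays measured either gene well above background. Golt1a, a Golgi transport protein, stood 2.16 above it. 2310005E17Rik and Prph2, the latter known from photoreceptors, were well above background on all T247 arrays of both stages and on no control 4-cell array. None of these 5 genes changed by a called amount from the 2-cell to the 4-cell stage under T247. Neurl2 rose by 3.35 under T247 and 2.86 without it and no longer differed by a called amount at the 4-cell stage (-0.27), nor did Mthfsd (-0.49), whose untreated level rose by 2.83. Sppl2c was well above background on 2 T247 2-cell arrays and 1 T247 4-cell array.

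**Figure D5:**
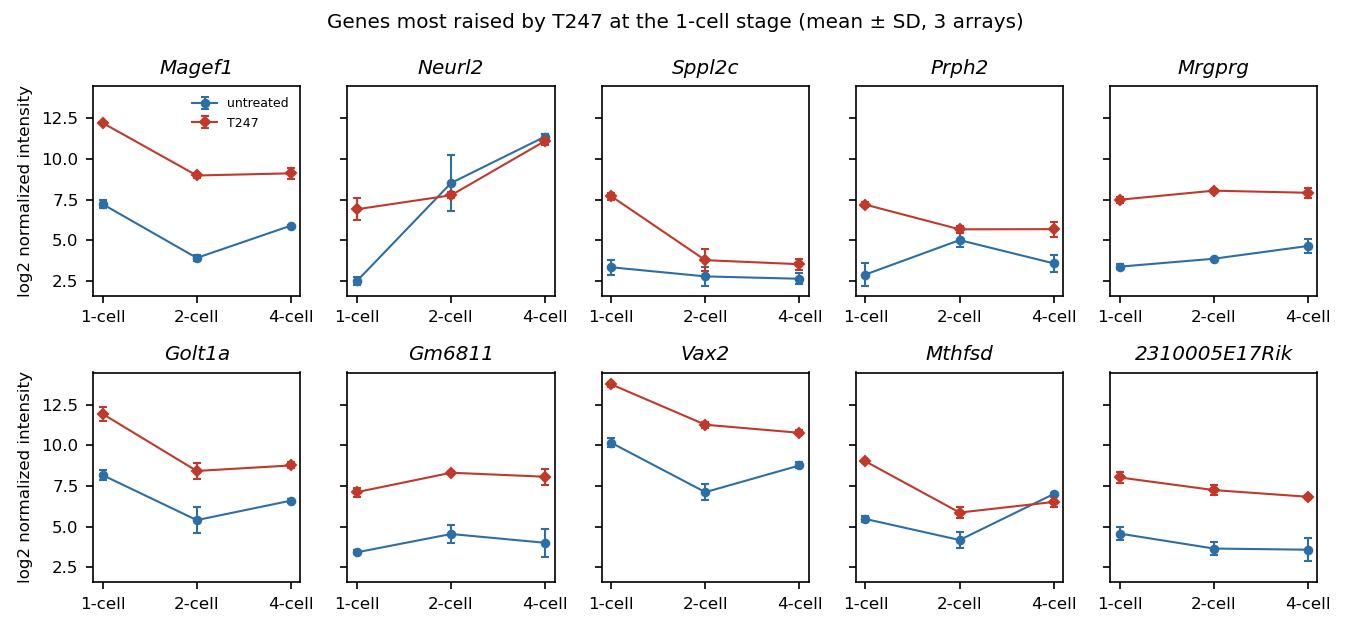
Mean log2 normalized intensity ± SD of 3 arrays at 12, 24 and 48 h after insemination (1-cell to 4-cell) for the 10 genes with the largest T247 minus control difference at the 1-cell stage, with T247 in red and untreated embryos in blue. The T247 mean lies above the untreated mean at the 4-cell stage in 8 panels and below it in those of Neurl2 and Mthfsd, and Sppl2c is near background after the 1-cell stage.

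A split of the genes by untreated arrays outside both stages showed the same 2 directions. Of 4169 genes at least 4-fold higher in MII oocytes than in 8-cell embryos, 3328 fell and 101 rose from the 2-cell to the 4-cell stage under T247 (median -2.33, untreated -2.63). Of 3869 genes at least 4-fold higher in 8-cell embryos, 2758 rose and 215 fell (median 2.01, untreated 1.66). The remaining 7952 genes rose in 1827 cases and fell in 1579 (median 0.03). Thus 79.8% of the oocyte-high genes fell and 71.3% of the 8-cell-high genes rose in embryos exposed to T247, beside 32.0% and 29.3% of all genes. The median differences of changes in these classes were 0.31 and 0.47, against 0.28 over all genes, and became -0.01 and 0.11 with 75th percentile scaling.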

How the data were processed

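The 39 one-colour Agilent arrays of the series were scanned by the authors, who deposited, per array, background-subtracted processed intensities with detection flags (Feature Extraction, version 10.7.1.1 in the file headers and 9.5.1.1 in the labels). The deposited series matrix holds log2 values that the authors filtered, filled in and normalized, and was used only as an alternative, since it lists 10829 of the genes.

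From the intensities, spots flagged as outliers were left out, a probe was kept if each of 8 conditions had 1 or more of its 3 arrays flagged positive and significant, missing values were filled in (2.24% of values on the 6 T247 arrays), the brightest probe was kept for each of 15990 genes, and log2 values were brought together by smooth quantile normalization over 24 arrays. One group-means model was fitted to these arrays in limma 3.58.1 (R 4.3.3), with Benjamini-Hochberg adjustment, and its step was tested on simulated data. Probes were named through RefSeq (GRCm38.p6) by accession (27319), symbol (3528) or synonym (551), and 24283 stayed unnamed. The number of arrays limits the precision. A probe that no array of 1 stage measured well above background has a bound in place of a fold, and a probe dim at both stages has neither. Slide was tried as a random block. For the values within the slide that held both stages, T247 4-cell replicates 2 and 3 were left out. The spread in that fit still came from all arrays kept, on every slide. Replicate numbers, which the labels do not tie to a shared source, were not used for pairing.

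Named genes were the 12 largest rises and falls measured on all 6 arrays without overlap, the 8 largest bounds on each side, the 6 largest differences of changes on each side measured on all 12 arrays, up to 3 called rises and falls of each list (any member of lists of up to 25 genes), the deacetylases, 8 stage markers and the 10 genes most raised at the 1-cell stage. The 16-fold classes and Rps27l and Rplp0 were named after their values were seen. Genes of the form Gm or Rik took a place only in the last group. The comparison, the lists and this rule were chosen with earlier results of these data known. Alternatives covered normalization, background correction, the detection filter, filled-in values, the choice of probe, arrays in the fit, array weights, the threshold and each array left out in turn.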

Additional observations from a re-analysis of the deposited data

Results flagged for a closer look

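The change from the 2-cell to the 4-cell stage differed between T247 and untreated embryos, by the test of the difference itself in limma, for 12 named genes that every one of the 12 arrays measured well above background. The difference of log2 changes was higher under T247 for Igfbp2 (5.33), Eid2 (5.32), Cd24a (4.64), Tssk6 (4.60), Fzd2 (4.45) and Hspb1 (4.32). It was lower for Plekhf1 (-4.64), Xbp1 (-4.28), Tagln2 (-4.06), Sgk1 (-3.96), Plcd1 (-3.91) and Ccdc61 (-3.82). Without 2-cell control replicate 1 the differences were 6.36, 6.23, 5.63, 6.38, 5.11 and 4.94 for the first 6 genes and -4.51, -4.81, -4.07, -4.20, -3.81 and -3.50 for the others, in the same order. T247 and control arrays shared no slide, so slide and treatment cannot be told apart in these differences.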

How the results depend on the processing

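For the T247 transition, leaving out each array in turn gave 4643 to 4679 genes higher and 5073 to 5148 lower. Other settings kept both counts within 1.5 times except the series matrix values, which cover fewer genes and gave 3050 lower. The difference of changes was less stable. Leaving out arrays gave 3817 to 5616 genes called, 2724 to 3713 higher and 1077 to 1903 lower, and 2-cell control replicate 1 gave the upper end of each (1903 lower without it). The genes called higher were 1700 with 75th percentile scaling, and those called lower 2074, 2055 with quantile normalization and 2008 with array weights, a fit whose weights did not fully converge. Normexp background correction called 2486 (1893 higher, 593 lower), the series matrix 2775 (718 lower), and a test against a 2-fold change 793 (563 higher, 230 lower). The cause was not tested beyond the fewer genes and the stricter threshold of the last 2 settings. The position of the T247 4-cell arrays differed from the control by -0.116 to -0.0841 with arrays left out, and the 2-cell position by -0.103 to -0.0138. Of single genes whose change was at least 0.25 in size or had an adjusted p below 0.05, 15 values reversed. Nearer to 0, a further 38 values of 12 genes changed sign, from -0.44 (Gars with quantile normalization) to 0.77 (Csf1r with the mean of the probes), none of them called. With the mean of the probes Nanog became 1.03, Mrps25 0.42, Tet2 0.36 and Itgam 0.44. With quantile normalization Uhrf2 (change from 2-cell to 4-cell under T247) became -0.088, Ptgs2 0.0398, Star 0.24, Tnp1 0.0653 and Oaz3 0.26. With normexp Star became 0.10, Tnp1 0.0427 and Oaz3 0.0636, and Star was 0.37 within the shared slide, 0.34 with array weights and -0.65 to 0.18 with arrays left out, the latter without T247 4-cell replicate 2. Same-numbered arrays of the 2 stages deviated together with correlations of -0.0428 to 0.0925 under T247 and 0.0209 to 0.0727 in untreated embryos. With 3 arrays per group these values cannot decide whether the numbers pair the samples. In the control groups the replicate number and the slide coincide. With the replicate block the T247 counts were 4638 and 5081, and the difference was called for 3199 genes (2327 higher, 872 lower), and not every array correlated best with its own number. Probes dim at 1 stage limit folds to bounds, and Hdac3, dim at both stages, has neither a fold nor a bound.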
